A study of Arabidopsis thaliana with 25 samples.

Results

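The HD-ZIP class III genes of Arabidopsis thaliana are PHB (AT2G34710, chromosome 2), PHV (AT1G30490, chromosome 1), REV (AT5G60690, chromosome 5), ATHB8 (AT4G32880, chromosome 4) and ATHB15 (AT1G52150, chromosome 1). They were chosen by locus identifier and make up 5 of 27444 nuclear protein-coding genes, and the gene table's own symbols for these identifiers (PHB, PHV, REV, HB-8 and ATHB-15) match their names. For each gene, every peak summit inside it or within 500 bp of it was taken from 8 deposited summit lists. The choice of genes was made with results of these data known, so their presence and scores are given as a description, without tests.

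HD-ZIP class III proteins are transcription factors that carry a homeodomain, a leucine zipper and a START domain. They specify the adaxial (upper) side of leaves, keep shoot meristems active and pattern the vasculature. Their mRNAs are cut and repressed through the microRNAs miR165 and miR166, their proteins are held in inactive dimers by the small ZPR leucine zipper proteins, and KANADI and YABBY factors act on the opposite, abaxial side.

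Chromatin was immunoprecipitated from Col-0 seedlings with antibodies to 4 transcript elongation factors, with 4 libraries each, and to RNA polymerase II (RNAPII) phosphorylated at serine 2 (S2P) or serine 5 (S5P) of its carboxy-terminal domain, with 2 libraries each. A further 5 libraries were inputs, and all 25 samples came from plants of the same ecotype grown at 21 °C for 16 h in light and at 18 °C in darkness. The protocol attached to every sample also mentions 44 °C for 10 min, but no label marks a sample as heated and no heated group was made. The factors were SPT5, which travels with RNAPII, ELF7, a PAF1 complex subunit, and SSRP1 and SPT16, the subunits of FACT, a complex that moves histones out of the way of RNAPII and puts them back.

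Each list is named for a factor over an RNAPII form and was read as the factor's libraries called against that form. On this reading, which the files do not spell out, a summit marks a place where the factor exceeded the RNAPII form, not the factor's occupancy alone. The score of a summit is the authors' −log10 q, with a lowest value of 2.0 over the 30216 summits of all lists, so a gene without a summit has no measured level. The lists hold no values per library. There is therefore no replicate error, sequencing depth is unknown, and scores are compared within a list.

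Only the FACT lists held summits at HD-ZIP class III genes. Of the 5 genes, 4 had at least 1 summit within 500 bp and ATHB15 had none, while 36.8% of all protein-coding genes and 47.4% of those as long as the members had a summit in at least 1 list. The 12 summits belonged to SPT16 in 8 cases and SSRP1 in 4 cases, and stood at 10 distinct positions. SPT16 over S2P reached 4 members (PHB, PHV, REV and ATHB8), against 21% of all protein-coding genes, and SSRP1 over S2P reached 3 (PHB, PHV and ATHB8), against 19.1%. SPT16 and SSRP1 over S5P each reached PHB and no other member, against 24.2% and 14.4% of all genes.

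SPT5 and ELF7 had a summit at 0 of 5 members over either RNAPII form. Among all protein-coding genes the corresponding shares were 1.05% for SPT5 over S2P, 15.6% for SPT5 over S5P, 8.54% for ELF7 over S2P and 2.08% for ELF7 over S5P. A count of 0 of 5 genes is near these shares. The nearest ELF7 summit over S2P lay 1925 bp from ATHB15, 7440 bp from ATHB8 and at least 10669 bp from the other members. A summit of SPT5 over S5P came as near as 3378 bp to PHV, with a score of 7.33.

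The members are long genes of nearly equal size, from 4970 bp for PHV to 5312 bp for ATHB8, whereas the median protein-coding gene measures 2078 bp and 6.09% are as long as PHV or longer. In the 333 protein-coding genes in this length range the shares with a summit were 22.2% for SPT16 over S2P, 18.3% for SSRP1 over S2P, 16.2% for SSRP1 over S5P and 32.7% for SPT16 over S5P. They were 6.61% for ELF7 over S2P, 1.8% for ELF7 over S5P, 20.7% for SPT5 over S5P and 1.2% for SPT5 over S2P. A summit in FACT lists alone, as at PHB, PHV, REV and ATHB8, was found in 21.6% of genes in the length range and 14.1% of all protein-coding genes.

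**Figure D1:**
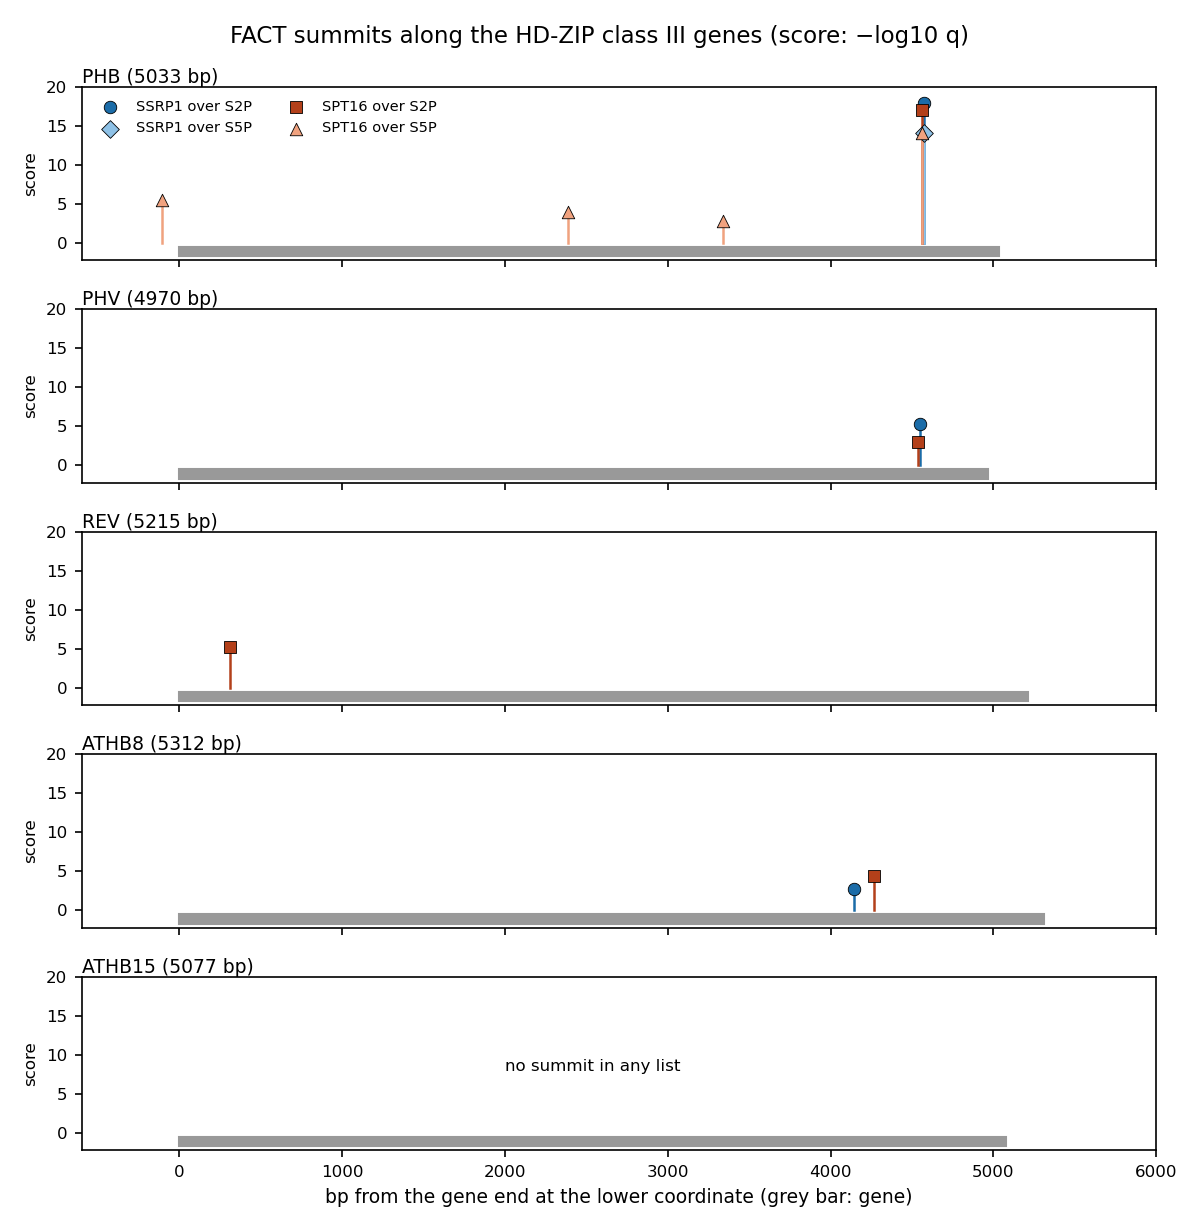
Summits of the 4 FACT lists along each HD-ZIP class III gene, with the distance in bp from the gene end at the lower coordinate on the horizontal axis and the score (−log10 q) on the vertical axis. PHB carries 7 summits with the highest scores about 460 bp from its right end, PHV, REV and ATHB8 carry 2, 1 and 2, and ATHB15 carries none.

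PHB, which promotes adaxial fate in leaves and acts in the embryo and the root, stood apart from the other members in number of summits and in score. It had 7 of the 12 summits and was in all 4 FACT lists. SSRP1 scored 18.0 over S2P and 14.1 over S5P, both at position 14643895 of chromosome 2 (TAIR10), 460 bp inside the gene end at the higher coordinate. SPT16 scored 17.1 over S2P and 14.1 over S5P, both at position 14643886 of chromosome 2, 469 bp inside the same end. The subunits thus lay 9 bp apart, also where SSRP1 over S2P is set beside SPT16 over S5P, which share no library on the reading above.

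The PHB scores were high within each list. PHB ranked 473rd of 5236 genes with a summit of SSRP1 over S2P and 456th of 5770 for SPT16 over S2P, at the percentiles 91.0 and 92.1. Over S5P it ranked 138th of 3963 for SSRP1 and 173rd of 6642 for SPT16, at the percentiles 96.5 and 97.4. The lists differ in length and libraries, so the percentiles over S2P and S5P do not measure a change between the forms. A gene in all 4 FACT lists and in none of SPT5 or ELF7, as PHB was, is found in 1045 cases, or 3.81% of protein-coding genes, and in 6.31% of those in the length range.

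SPT16 over S5P had 3 further summits at PHB that no other list shared. The strongest of them, with a score of 5.49 at position 14639216 of chromosome 2, lay 107 bp outside the gene, beyond the end opposite to the main summits. The nearest annotated gene on that side was 3696 bp away from PHB, so no neighbour holds that summit. The other summits lay in the gene interior, with scores of 3.94 at 2388 bp and 2.88 at 3340 bp from the lower end. These are low to moderate scores for the list, in which 35.8% and 15.2% of the 7394 summits score no higher, against 61.1% for the summit outside the gene and 97.8% for the main one.

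PHV is the closest relative of PHB and has overlapping functions in leaf polarity. Its summits lay about as far from the end at the higher coordinate as the main PHB summits, with lower scores. SSRP1 over S2P scored 5.30 at position 10800672 of chromosome 1, 421 bp from the end at the higher coordinate. SPT16 over S2P scored 2.98 at position 10800664 of chromosome 1, 429 bp from that end and 8 bp from the SSRP1 summit. These scores stood at the percentiles 32.0 and 8.94 among genes with a summit, below the medians of 7.18 for SSRP1 and 6.64 for SPT16. Over S5P no PHV summit was listed, and the nearest FACT summit was one of SPT16 12634 bp away.

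REV, which acts in lateral meristem formation, in stem fibre formation and in leaf polarity, had a single summit. SPT16 over S2P scored 5.25 at position 24397293 of chromosome 5, 312 bp from the gene end at the lower coordinate, at the percentile 36.4 of genes in that list. No SSRP1 summit over S2P lay nearer than 10608 bp. The right end of REV overlaps AT5G60700 by 67 bp, but the summit is at the other end and inside no other gene.

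ATHB8, an auxin-responsive gene of vascular precursor cells, had its summits over S2P farther from a gene end than those of the other members over S2P. SPT16 over S2P scored 4.42 at position 15867608 of chromosome 4, 1042 bp from the end at the higher coordinate. SSRP1 over S2P scored 2.70 at position 15867481 of chromosome 4, 1169 bp from that end and 127 bp from the SPT16 summit. Their percentiles were 25.9 for SPT16 and 4.20 for SSRP1, so that the SSRP1 summit was among the lowest listed. A gene with summits of both FACT subunits over S2P and in no other list, as PHV and ATHB8 were, occurs in 1.75% of all protein-coding genes and 2.4% of those in the length range.

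ATHB15, also called CORONA or INCURVATA4 and known for roles in the vasculature and in meristem size, had no summit inside it or within 1000 bp. Its neighbour AT1G52140 had summits in 6 of the lists, all of the FACT and ELF7 lists. The nearest of these were SPT16 summits over S2P (11.3) and over S5P (11.1), 1802 bp from ATHB15. Summits were thus called in the surrounding region, while the level at ATHB15 itself is not recorded in the lists.

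**Figure D2:**
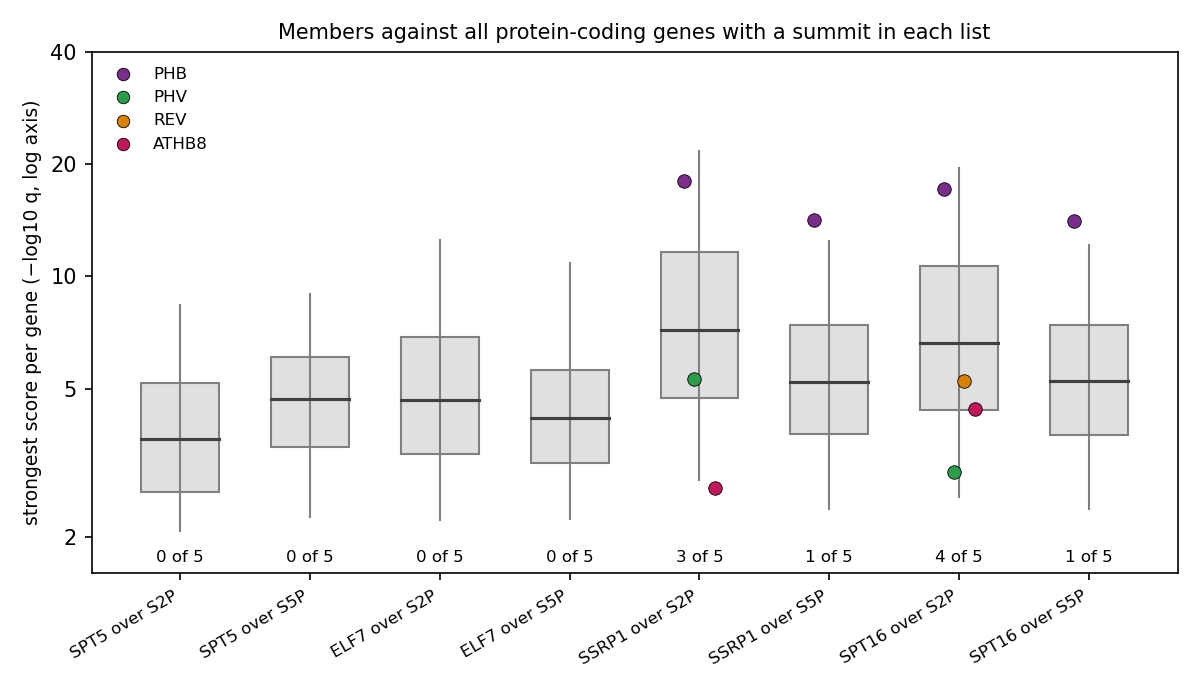
Strongest score per gene (−log10 q, log axis) of the members in each list (coloured points) against all protein-coding genes with a summit within 500 bp, where boxes span the quartiles, the bar is the median and lines reach the 5th and 95th percentiles. PHB lies at the percentiles 91.0 to 97.4 of its 4 lists. PHV and ATHB8 lie below the medians of SSRP1 and SPT16 over S2P, and REV below that of SPT16 over S2P, its only list. Numbers under the boxes count the members with a summit.

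Across the family, 11 of 12 summits were inside the genes, and the strongest summits of PHB, PHV and REV lay from 312 to 469 bp inside an end. The median distance to the nearer end was 460 bp for the 4 SSRP1 summits and 469 bp for the 7 SPT16 summits inside the genes. On the scale from 0 at an end to 0.5 at the gene centre these correspond to medians of 0.0914 and 0.0932. Each median is the distance of the main PHB summit, which is counted over S2P and again over S5P, so it largely describes PHB. Summits inside all protein-coding genes of the same length range had median distances of 606 bp for SSRP1 over S2P (67 summits) and 719 bp for SPT16 over S2P (92 summits), with quartiles of 422 and 1004 bp and of 420 and 1249 bp. Over S5P, where PHB alone had summits, the medians in this length range were 512 bp for SSRP1 (50 summits) and 490 bp for SPT16 (97 summits), close to the family medians, which pool both forms. The zone from 300 to 500 bp held 35.8% of the SSRP1 summits and 31.5% of the SPT16 summits over S2P. The strongest summits of PHB, PHV and REV lay in this zone, and the SSRP1 summit of ATHB8 lay beyond the upper quartile over S2P.

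The end concerned was the one at the higher coordinate in PHB, PHV and ATHB8 and the one at the lower coordinate in REV. The gene table used here gives neither strand nor exons, so the direction of transcription and the exon or intron that holds each summit were not analysed here.

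Where both FACT subunits had a summit over S2P, their strongest summits lay 9 bp apart in PHB, 8 bp in PHV and 127 bp in ATHB8. Among all 4736 protein-coding genes with both, the median gap was 83.5 bp, 8.76% had a gap of at most 10 bp and 76.2% one of at most 250 bp. In the length range the median over 55 genes was 82 bp, and 16.4% had a gap of at most 10 bp. Both lists share the S2P libraries as the presumed control. At PHB the summits of each subunit stood at the same base over S2P and S5P, as they did in 64.8% of 3469 genes for SSRP1 and 52.4% of 4460 genes for SPT16, whose lists share the factor's libraries.

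The 5 protein-coding genes outside the family with a pattern most like it were found from the percentile of each gene's strongest score in each of the 8 lists, with 0 where no summit was listed. The family median was above 0 in 2 lists only, so PHB stood for the family. The most similar gene was DND1 (AT5G15410), a gene for a cyclic nucleotide-gated ion channel, with a mean absolute difference of 0.377 percentile points over the 8 lists and scores of 18.8 and 15.1 for SSRP1 and 16.7 and 13.3 for SPT16 over S2P and S5P. AT1G74370, AT5G57340, AT3G53960 and PAD4, a regulator of plant immunity, followed with differences of 0.394, 0.501, 0.669 and 0.906. All of them were in the 4 FACT lists and in no other list, and measured 1315 to 3657 bp, shorter than any member.

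The regulators of the family were looked up in gene lists drawn from general knowledge of the pathway. Among the 9 genes for miR165 and miR166, 4 had a summit within 500 bp, and each of these was in at least 4 lists. MIR166A scored 31.4 for SSRP1 and 23.7 for SPT16 over S2P, 14.5 and 11.5 over S5P, and 5.98 for ELF7 over S2P, all between 39 and 97 bp outside one end of the annotated precursor. MIR166B scored 21.1 for SSRP1 over S2P, 9.35 for SSRP1 over S5P, 5.77 for SPT16 over S5P and 3.22 for ELF7 over S2P. MIR166A thus had higher scores for both subunits over S2P than PHB, and 2 of the 9 microRNA genes had an ELF7 summit over S2P, a list in which no member appeared.

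MIR166E scored between 6.98 and 9.17 in the 4 FACT lists, and MIR165A between 3.85 and 8.75. The MIR165A summits lay inside AT1G08765, which the gene table classes as miscellaneous RNA and which overlaps that position. Of all 326 annotated microRNA genes, 13.2% had a summit of SSRP1 over S2P within 500 bp, 12.9% of SPT16 over S2P, 12.3% of SSRP1 over S5P, 12% of SPT16 over S5P and 5.52% of ELF7 over S2P. A summit in at least 1 of the 8 lists was found near 18.7% of them. The annotated precursors are short, at 105 to 182 bp in this group, so that the summits lie beside rather than inside them. The table gives no strand or extent for their primary transcripts.

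Genes that act on the microRNA or on the proteins had lower scores than PHB in each list they shared with it. AGO1, which carries out cleavage guided by microRNAs, scored 5.44 for SSRP1 and 6.87 for SPT16 over S2P, and 3.99 and 6.46 over S5P. AGO10, which binds miR165 and miR166 and keeps them from AGO1, scored 5.03 and 3.72 over S2P and 3.69 and 4.49 over S5P, and 2.13 for SPT5 over S5P. The SPT5 summit at AGO10 lay 36 bp and the strongest SPT16 summit over S5P 44 bp inside the same gene end. Of the 4 ZPR genes, ZPR1 had summits of SPT16 (6.17) and SSRP1 (3.01) over S2P and the other members had none. The shares of all protein-coding genes over S2P were 21% for SPT16 and 19.1% for SSRP1, and 1 of 4 genes is near them.

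Among 10 genes of abaxial fate, SPT16 reached 6 over S2P and 6 over S5P, and SSRP1 reached 3 and 2. The shares of all protein-coding genes were 21% and 24.2% for SPT16 and 19.1% and 14.4% for SSRP1. KAN1, a KANADI gene that opposes HD-ZIP class III function, scored 4.41 for SPT16 and 3.58 for SSRP1 over S2P, 3.22 for SPT16 over S5P and 3.94 for SPT5 over S5P, the last 84 bp inside the end opposite to the FACT summits of highest score. YAB5, a YABBY gene, scored 5.06 for SPT16 and 3.29 for SSRP1 over S2P and 4.52 and 3.51 over S5P. The counts for SPT16 over both forms and for SSRP1 over S5P include ARF3, whose summits lay inside its neighbour AT2G33855. AS1, which acts with AS2 in adaxial fate, was in all 4 FACT lists with scores from 3.45 to 6.67, and AS2 was in none.

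Of 8 reported downstream genes of the family, 4 were in all 4 FACT lists and in ELF7 over S2P, a combination found in 5.78% of all protein-coding genes. These were the class II HD-ZIP genes HAT2, ATHB2, HAT3 and HAT22, whereas ATHB4, also of class II, was in 0 lists. SSRP1 over S2P scored 17.8 at HAT2, 14.6 at ATHB2, 14.2 at HAT3 and 6.51 at HAT22. ELF7 over S2P scored 10.4 at ATHB2, 8.14 at HAT2, 2.93 at HAT3 and 2.18 at HAT22. SSRP1 over S5P scored 9.75 at HAT2, 7.31 at HAT22, 2.48 at HAT3 and 2.03 at ATHB2. For ATHB2, HAT3 and HAT22 the combination thus rests on scores near the lowest listed value of 2.0. These genes measure 1635 to 2082 bp and are shorter than the class III genes, where no ELF7 summit was listed. Of the vascular regulators, ACL5 had summits (6.74 for SPT16 and 3.81 for SSRP1 over S2P and 4.45 for SPT16 over S5P), and ARF5, IAA12, SHR and SCR had none. Of all protein-coding genes, 36.8% had a summit in at least 1 list.

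The class IV HD-ZIP genes, which share the homeodomain, leucine zipper and START domain and act in the epidermis, served as the most similar family. Of 16 class IV genes, 7 had a summit in at least 1 list, 7 in SSRP1 over S2P, 4 in SPT16 over S2P and 6 in each FACT list over S5P. The class III counts in the FACT lists, in the same order, were 3, 4, 1 and 1 of 5. Among all protein-coding genes 36.8% had a summit in at least 1 list. The shares were 19.1% for SSRP1 and 21% for SPT16 over S2P, and 14.4% and 24.2% over S5P. Neither class had an ELF7 summit, and SPT5 over S5P reached HDG1, a class IV gene, with a score of 5.53 at 177 bp outside a gene end. The shares of all protein-coding genes were 8.54% for ELF7 over S2P, 2.08% for ELF7 over S5P and 15.6% for SPT5 over S5P. Among 16 genes, counts of 0 for ELF7 and 1 for SPT5 are not far from these shares. With 5 and 16 genes and no replicate values, no difference between the classes was tested.

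Within class IV, PDF2 and ATML1, a gene pair that specifies the epidermis, were each in all 4 FACT lists. PDF2 scored 12.3 for SPT16 and 6.88 for SSRP1 over S2P, and 9.19 and 7.41 over S5P. ATML1 scored 7.48 and 8.60 over S2P and 8.23 and 7.73 over S5P. The SSRP1 summits of highest score lay 423 and 426 bp inside an end of PDF2 and 411 bp inside an end of ATML1, a distance like those in PHB and PHV. In PDF2 the strongest SPT16 summit instead lay 1337 bp from the end. ANL2, a gene of epidermal pigmentation, scored from 6.85 to 8.22 in the 4 FACT lists at 611 to 646 bp, whereas at GL2, a regulator of trichomes and root hairs, the strongest summits of 3 lists lay 311 or 331 bp outside the gene.

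**Figure D3:**
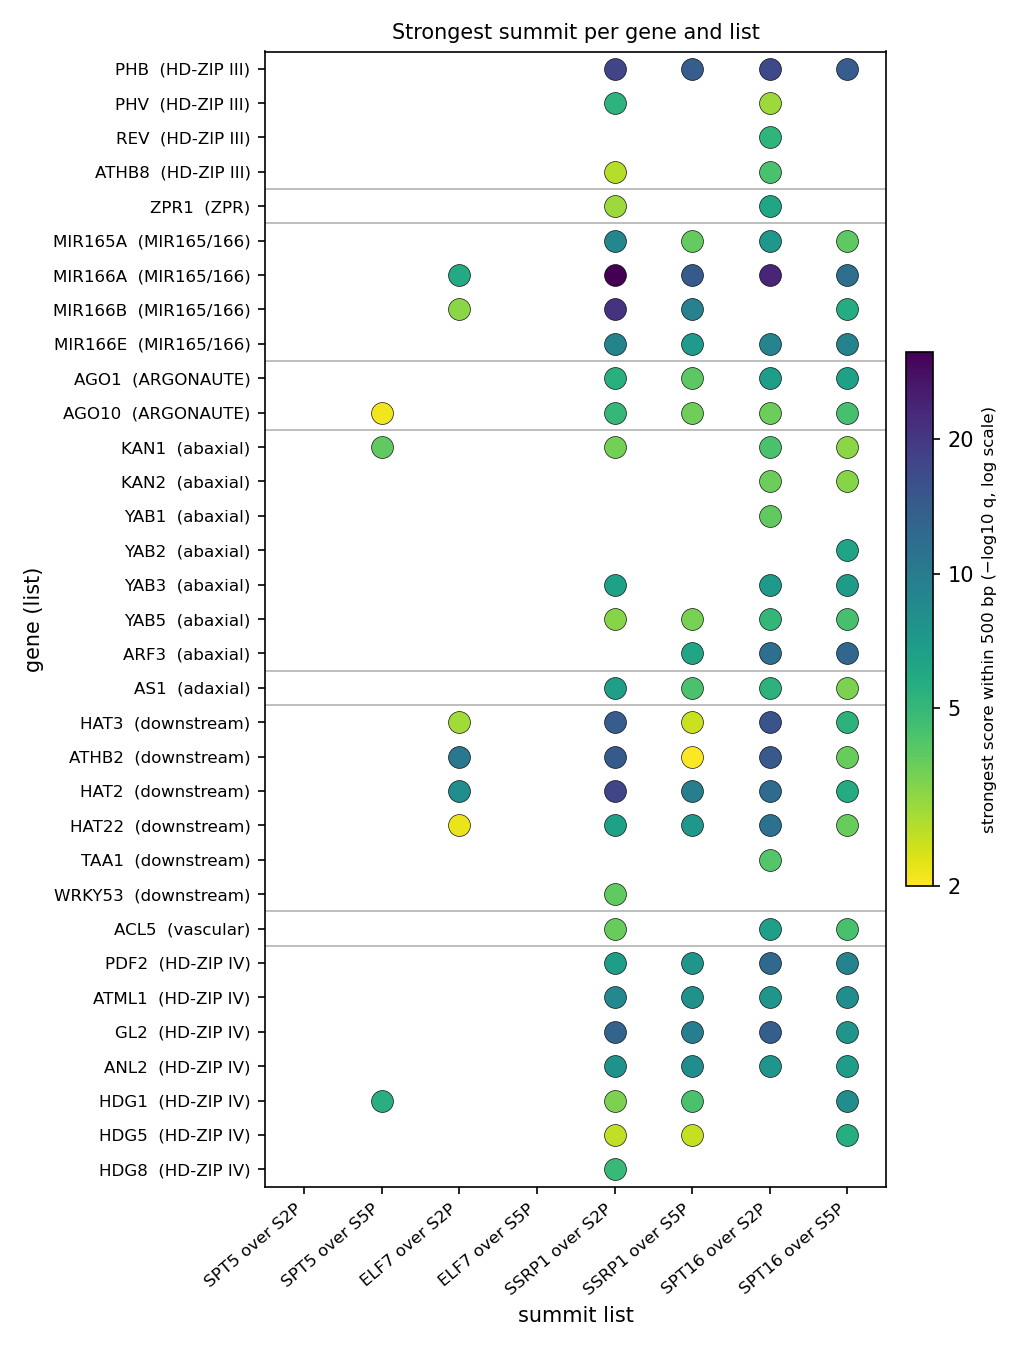
Strongest score (−log10 q, colour on a log scale) within 500 bp of each gene in each of the 8 lists, for the 33 of 62 listed genes with a summit in any list, grouped as in the text. PHB is in the 4 FACT lists and the other class III members in 1 or 2, while the class II genes HAT3, ATHB2, HAT2 and HAT22 and the microRNA genes MIR166A and MIR166B are also in ELF7 over S2P.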

How the data were processed

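Per the submitters' processing notes, the tools were Trimmomatic (0.39), Bowtie2, SAMtools (1.16.1), deepTools and MACS3, and the build was TAIR10. Settings, the control and how libraries were pooled are not stated there. The deposited score is the −log10 of the q-value of each summit, and its lowest value, 2.0, corresponds to a q of 0.01. Coverage tracks were not analysed here.

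Summits were assigned with pandas 2.3.3 and numpy 2.4.6 to the genes of a RefSeq table (assembly TAIR10.1, coordinates not printed). All 62 listed identifiers matched; 1 listed gene is not reported here. As a check of register, 90.1% of the 23622 FACT summits lay inside protein-coding genes, and 76.2% and 75.9% after shifts of 500 bp either way. Shifts of 100 bp gave 90.8% and 91.0% and shifts of 200 bp gave 90.7% and 91.0%. Distances of up to 200 bp are therefore not fixed by the check. Assignment was tested on simulated summits.

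Members and lists were chosen with earlier results of these data known. Named genes are the members, listed genes in at least 4 lists, and the 5 most similar genes; others were named after their values were seen. Intervals are exact Clopper-Pearson 95% intervals, which cover counting error only. Alternatives were the window (0, 250 and 1000 bp), score minimums of 5 and 10, summits inside other genes, distances that count as close, and the strongest summits.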

Additional observations from a re-analysis of the deposited data

How the results depend on the processing

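Only the score minimum moved a count at the members by more than 1.5 times, in 13 of 136 recomputed values. The window, the removal of summits inside other genes, the distances that count as close and the use of the strongest summits did not. At scores of at least 5, PHV was in 1 list and ATHB8 in 0, SPT16 over S2P had 2 members with 2 summits, and SPT16 over S5P had 2 summits. At scores of at least 10, PHV, REV and ATHB8 were in 0 lists, SSRP1 and SPT16 over S2P each had 1 member with 1 summit, and SPT16 over S5P had 1 summit, all at PHB. No paired analysis was possible because the lists hold no values per library, and for the same reason no library was left out. The presence of summits at PHV, REV and ATHB8 thus rests on scores of at most 5.30, and depth, which is unknown, limits what a missing summit shows.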

Other observations

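PHB combined high FACT scores with no ELF7 summit, a comparison chosen after its values were seen. Of 276 protein-coding genes with scores of both SSRP1 and SPT16 over S2P at or above those of PHB, PHB included, 251 had an ELF7 summit over S2P (90.9%, 95% interval 86.9 to 94.1) and 25 had none. In the length range of the family 2 genes reached these scores, PHB and 1 other, and neither had an ELF7 summit. Of all 3055 genes in the 4 FACT lists, 51.9% had an ELF7 summit over S2P (50.1 to 53.7), and of the 38 such genes in the length range 36.8% (21.8 to 54). The interval in the length range includes the share over all genes, and the part of gene length in the result at PHB was not tested.

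The SPT16 summit over S5P just outside PHB lay at the end opposite to the strongest SPT16 summit over S2P, which was also noticed in the data. Among protein-coding genes with the strongest SPT16 summit over S2P inside, 723 SPT16 summits over S5P lay up to 250 bp outside a gene end, and 551 of them (76.2%, 95% interval 72.9 to 79.3) were at the end opposite to it. Without summits that fall inside another protein-coding gene the share was 77.7% of 494 (73.8 to 81.3). In the length range of the family it was 7 of 7, PHB included. In class IV, PDF2 had such a summit 70 bp and ATML1 28 bp outside the gene, with scores of 3.63 and 2.97.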
